A study of Mus musculus with 9 samples.

Results

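The genes described here build and load major histocompatibility complex (MHC) class I molecules in liver macrophages. They are 10 genes chosen by function: the light chain B2m, the heavy chains H2-K1 and H2-D1, the peptide transporter subunits Tap1 and Tap2, the bridging protein tapasin (Tapbp), the class I transactivator Nlrc5, and the immunoproteasome subunits Psmb8, Psmb9 and Psmb10. The choice was made with earlier results of these data known. All 10 are among the 23413 genes of the deposited table, and all 10 are among the 11393 that passed the filter on low counts. The lowest count of any of them in any library was 27, for Tap2 in 1 normal chow library. RNA-seq was carried out on sorted liver macrophages of male C57BL/6 mice, with no engineered allele named for any group. NC mice (n = 2 libraries) ate normal chow for 8 weeks from 5 weeks of age. HFD + vehicle mice (n = 3) ate a high fat diet over the same period and received vehicle. HFD + DPI mice (n = 4) ate the high fat diet and received diphenyleneiodonium (DPI). DPI inhibits flavin enzymes, and the study used it as an agonist of the receptor GPR3. It was given at 2 mg/kg every 5 days, starting after 3 weeks on the diet. These treatments follow the study's methods. The sample labels instead state 500 nM DPI or DMSO for 24 h on purified cells, and the deposited values do not show which is right. Titles number 1 mouse per library, but the study describes more mice per group than there are libraries, so it is not known whether mice were pooled or left out. Nothing says that the mice of a group were housed or processed apart. The gate was F4/80+ CD11b+ Gr1low, which takes Kupffer cells, the resident macrophages of the liver, together with some monocyte-derived macrophages. NC mice are not said to have received vehicle, so diet and vehicle injection cannot be told apart in a comparison with NC.

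Class I molecules show peptides from proteins made inside the cell to CD8 T cells. The proteasome cuts the proteins, the TAP transporter moves the peptides into the endoplasmic reticulum, tapasin holds TAP beside an empty heavy chain with its B2m light chain, and the loaded complex goes to the cell surface. Interferon gamma raises most of these genes in macrophages, partly through NLRC5, a nuclear protein that acts at class I promoters, and it adds the subunits encoded by Psmb8, Psmb9 and Psmb10 to new proteasomes in place of those encoded by Psmb5, Psmb6 and Psmb7.

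Promoter sequence was examined because several of the genes moved together. The RefSeq promoter table used here (GRCm38.p6) held 8 of the 10 genes, and the promoters of Tap2 and Nlrc5 were not analysed here. The 250 bases before each start were searched on both strands for 4 motifs: GAAA and GAAA parted by any 2 bases (interferon-stimulated response element-like, ISRE-like), TTCNNNGAA (gamma-activated site), GGG and CC parted by any 5 bases (kappaB-like) and TGACG (core of the cyclic AMP response element, also part of the class I X2 box). The ISRE-like motif was in B2m only and is in 2.98% of all 32851 promoters of the table. Near matches were not counted, among them the stretch tttcacttct in both H2-K1 and H2-D1. No match therefore does not mean that a response element is absent. The gamma-activated site was in Psmb8 only and is in 7.02% of all. The kappaB-like motif and TGACG were each in 5 of the 8, namely B2m, H2-K1, H2-D1, Tap1 and Psmb9, against 45.8% and 17.8% of all promoters. No match was found in Tapbp or Psmb10. Psmb9 and Tap1 read in opposite directions, with 225 bases between their RefSeq starts. By these starts they share 1 upstream region and, with it, their matches. The sequences shown are those in which motifs were found, written 5′ to 3′ on the strand of the gene (on the Tap1 strand for the shared region), with matches in capitals. They lie at chr2:122147437-122147686 for B2m, chr17:34000348-34000597 for H2-K1 (minus strand), chr17:35262844-35263093 for H2-D1, chr17:34197945-34198194 for Psmb8 and chr17:34187331-34187555 for the Psmb9 and Tap1 region.
B2m: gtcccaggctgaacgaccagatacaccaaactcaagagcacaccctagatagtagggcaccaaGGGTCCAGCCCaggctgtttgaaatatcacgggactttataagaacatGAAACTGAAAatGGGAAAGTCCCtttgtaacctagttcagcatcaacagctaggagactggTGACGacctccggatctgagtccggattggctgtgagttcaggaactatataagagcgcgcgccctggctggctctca
H2-K1: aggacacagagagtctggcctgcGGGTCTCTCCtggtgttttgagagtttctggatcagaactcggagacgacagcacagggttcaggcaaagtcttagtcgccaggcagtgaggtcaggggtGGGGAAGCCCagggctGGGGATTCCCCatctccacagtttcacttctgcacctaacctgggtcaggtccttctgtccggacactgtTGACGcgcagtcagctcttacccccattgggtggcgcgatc
H2-D1: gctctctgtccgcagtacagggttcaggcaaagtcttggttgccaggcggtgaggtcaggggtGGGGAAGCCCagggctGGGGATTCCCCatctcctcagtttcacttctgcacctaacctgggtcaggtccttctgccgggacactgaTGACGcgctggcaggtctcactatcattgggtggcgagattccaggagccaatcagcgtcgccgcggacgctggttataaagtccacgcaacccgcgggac
Psmb8: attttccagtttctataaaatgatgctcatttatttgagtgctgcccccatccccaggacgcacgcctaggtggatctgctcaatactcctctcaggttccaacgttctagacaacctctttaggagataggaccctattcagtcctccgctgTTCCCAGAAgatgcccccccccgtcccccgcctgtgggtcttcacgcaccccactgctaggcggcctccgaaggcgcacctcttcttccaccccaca
Psmb9-Tap1: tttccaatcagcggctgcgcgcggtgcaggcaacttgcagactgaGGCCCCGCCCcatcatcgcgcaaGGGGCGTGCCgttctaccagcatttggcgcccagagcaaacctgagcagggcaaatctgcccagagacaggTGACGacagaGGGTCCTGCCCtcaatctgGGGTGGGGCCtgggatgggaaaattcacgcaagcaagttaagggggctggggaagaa
The H2-K1 and H2-D1 promoters shared an unbroken run of 47 identical bases that holds the kappaB-like matches common to both, from position -141 to -95 before the H2-K1 start and from -201 to -155 before the H2-D1 start. A match of letters is a description of the sequence and no measure of binding. In GENCODE (GRCm38), Psmb9 (chr17:34181987-34187764), Tap1 (chr17:34187553-34197225), Psmb8 (chr17:34197721-34201454) and Tap2 (chr17:34203527-34216321) are neighbours in the class II region. Tapbp (chr17:33915899-33929292), H2-K1 (chr17:33996017-34000347) and H2-D1 (chr17:35262730-35267499) lie on the same chromosome, B2m is at chr2:122147686-122153083, and Nlrc5 (chr8:94434356-94527272) and Psmb10 (chr8:105935735-105938444) are both on chromosome 8. The windows follow RefSeq starts, which can differ from those of GENCODE. By the GENCODE coordinates, the windows of H2-D1, Tapbp (RefSeq start chr17:33919478), Psmb8 and Psmb9 lie inside their genes, and the genes of Psmb9 and Tap1 overlap. The matches hold for the RefSeq starts only, and windows before GENCODE starts were not searched. The counts are over whole genes, so no exon or isoform is resolved.

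The 9 libraries held 3534325 to 15585775 counts, and Rn45s, a ribosomal RNA gene, took 27.0% to 44.5% of them. A count of 3 or fewer is taken as not different from none, which is 0.184 to 1.02 CPM (counts scaled to the same library size) depending on the library. CPM here are scaled with TMM factors, which correct for differences in RNA composition. The NC libraries were less alike than the others, with a Spearman correlation across genes of 0.74, against 0.867 to 0.88 among vehicle and 0.838 to 0.887 among DPI libraries. NC replicate 1 was the library least like the rest, at 0.753 to 0.768 with the HFD libraries. NC replicate 2 was at 0.794 to 0.838 with them, closer to each than to NC replicate 1. General macrophage markers summed to 15100 CPM or more in every library, while Clec4f, which defines mouse Kupffer cells, was counted 0 and 244 times in NC, 42, 0 and 0 times in vehicle and 219, 6, 4 and 6 times in DPI libraries. Over the whole list of 10 Kupffer cell markers, 4 to 10 were detected in each library. The name liver macrophages is used here, as in the description of the sort. In bulk RNA, fewer cells of a type and less RNA per cell cannot be told apart.

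To see how the high fat diet changed the class I genes, HFD + vehicle was compared with NC. The log2 fold change was above 0 for all 10 genes, and its median was 0.79 against 0.03 for all genes tested. B2m and Nlrc5 rose by the study's criterion of an unadjusted p under 0.05 with a 2-fold change, which is 2 of 10 genes against a background of 7.03% of all genes called higher and 4.63% called lower. At an unadjusted p under 0.05 alone, 7 of 10 were higher (B2m, H2-K1, H2-D1, Tap1, Tapbp, Nlrc5 and Psmb8), against 7.76% of all genes higher and 5.22% lower. In the same 7 genes every vehicle library lay above both NC libraries, which was so for 15% of all genes, and the reverse for 12.5%. None was lower. After Benjamini-Hochberg adjustment, edgeR's quasi-likelihood test called 0 of the 10 and 7 of all genes (0.0614%, all higher), DESeq2 called B2m and Nlrc5 (2.08% of all genes higher), and the likelihood ratio and exact tests of edgeR each called Nlrc5 alone (1.78% and 1.06% of all genes higher). The count at an unadjusted p under 0.05 depended on single libraries, with 3 genes (B2m, Tapbp and Nlrc5) without NC replicate 1, 4 (B2m, Tapbp, Nlrc5 and Psmb8) without vehicle replicate 2, and 4 (B2m, H2-D1, Tapbp and Nlrc5) without DPI replicate 3, which enters through the shared estimate of spread. The shares of all genes called higher were then 8.16%, 7.31% and 6.94%. By the study's criterion 5 genes rose without NC replicate 2 (B2m, Tap1, Tap2, Nlrc5 and Psmb8), when the share of all genes called higher was also larger at 14.5%, and 4 without DPI replicate 2 (B2m, Tap1, Tapbp and Nlrc5), with 6.85% of all genes higher. Nlrc5 was the only one when libraries were scaled by their totals without TMM factors, with 4.73% of all genes higher.

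**Figure D1:**
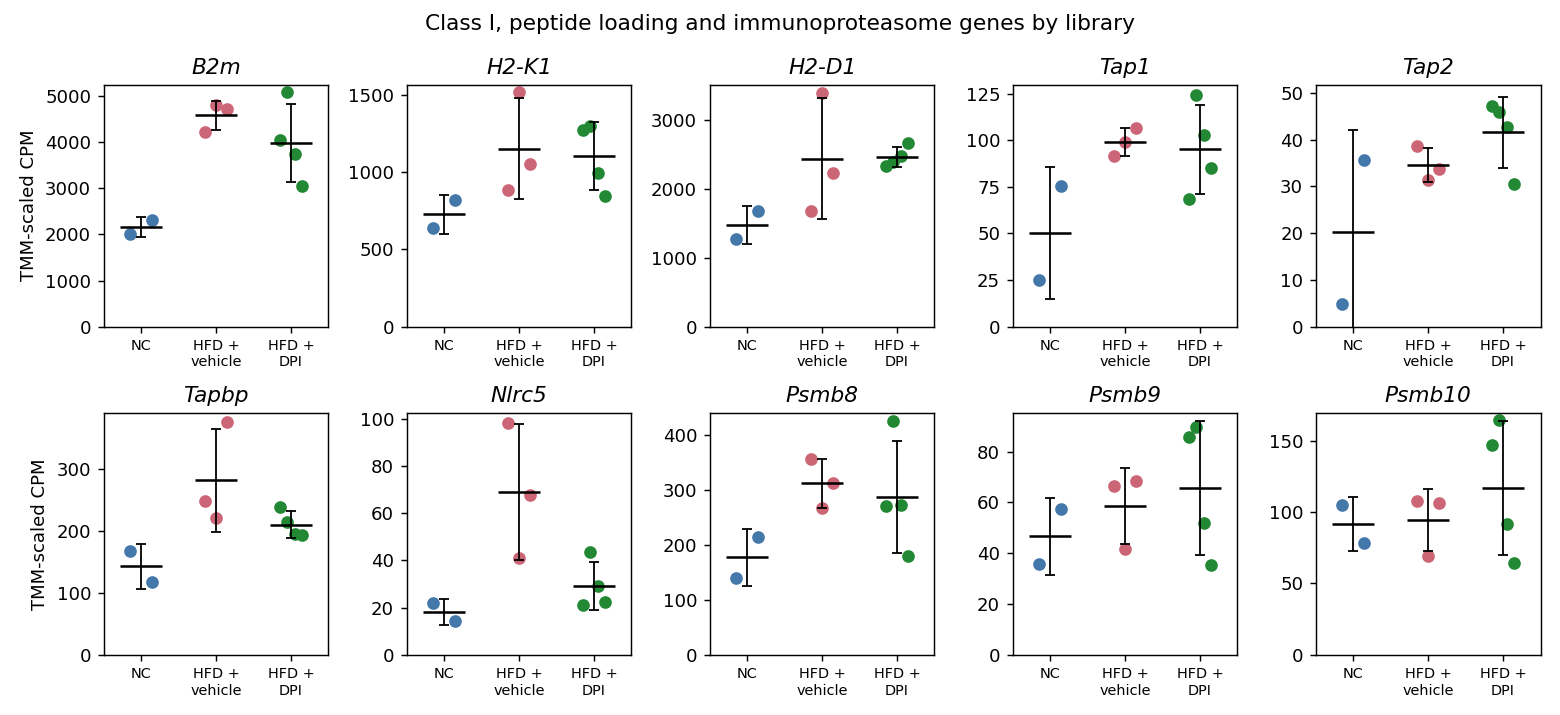
TMM-scaled CPM (linear axis from 0) of the 10 genes in each library, by group (NC n = 2, HFD + vehicle n = 3, HFD + DPI n = 4). Points are libraries, horizontal lines are means and bars are SD, which the axis cuts at 0 for Tap2 in NC. Vehicle libraries sit above both NC libraries for B2m, H2-K1, H2-D1, Tap1, Tapbp, Nlrc5 and Psmb8, and DPI libraries sit low for Nlrc5.

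B2m, the invariant light chain of every class I molecule, was the most abundant of the 10. It stood at 2012 and 2323 CPM in NC, at 4232, 4812 and 4733 in vehicle and at 4055, 5092, 3750 and 3064 in DPI libraries. All 7 HFD libraries lay above both NC libraries. The difference between vehicle and NC was 1.08 ± 0.25 (log2, SE; adjusted p = 0.131 by edgeR's quasi-likelihood test), and it stayed between 0.99 and 1.22 when any 1 library was left out. The lower of these values, without NC replicate 1, is just under a 2-fold change.

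H2-K1 encodes the K heavy chain. Its level was 636 and 816 CPM in NC, 883, 1517 and 1052 in vehicle and 1271, 1297, 996 and 845 in DPI libraries. The lowest HFD library was close to the higher NC library, although the groups did not overlap. H2-D1, the D heavy chain, stood at 1274 and 1669 CPM in NC, at 1675, 3393 and 2222 in vehicle and at 2321, 2390, 2467 and 2657 in DPI libraries. Here vehicle replicate 1 was next to NC replicate 2, and the DPI libraries were the most alike. The log2 differences between vehicle and NC were 0.66 ± 0.31 for H2-K1 and 0.72 ± 0.29 for H2-D1 (edgeR adjusted p = 0.382 and 0.338). With 1 library left out they ranged from 0.41 to 0.89 and from 0.41 to 0.98, both lowest without vehicle replicate 2. Class I heavy chain genes are near-identical in long stretches, and counting can share their reads. When all 22 class I heavy chain rows of the table were summed, H2-K1 and H2-D1 gave 71.5% to 78.4% of the sum in every library. The sum was 2550 and 3263 CPM in NC, 3579, 6261 and 4533 in vehicle, and 4731, 4940, 4548 and 4623 in DPI libraries. Its log2 difference between vehicle and NC was 0.72 ± 0.26 (edgeR unadjusted p = 0.0148, adjusted p = 0.291), the same size as for H2-D1.

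Tap1 and Tap2 encode both subunits of the peptide transporter. Tap1 was at 25.1 and 75.3 CPM in NC, at 91.5, 99.4 and 107 in vehicle and at 68.3, 124, 103 and 85.0 in DPI libraries. Tap2 was at 4.92 and 35.7 CPM in NC, at 38.6, 31.4 and 33.7 in vehicle and at 47.3, 45.9, 42.7 and 30.6 in DPI libraries. For both genes NC replicate 1 was far below every other library, and for Tap2 the second NC library lay among the HFD libraries. The log2 differences between vehicle and NC were 0.98 ± 0.44 for Tap1 and 0.77 ± 0.61 for Tap2 (edgeR adjusted p = 0.371 and 0.631). They rested on which NC library was used: without NC replicate 1 they were 0.41 and -0.04, and without NC replicate 2 they were 2.01 and 2.84, when edgeR called both after adjustment, with 3.76% of all genes called higher.
Tapbp (tapasin), which edits the peptides that class I molecules keep, stood at 169 and 118 CPM in NC, at 248, 221 and 378 in vehicle and at 239, 215, 195 and 194 in DPI libraries. All HFD libraries lay above both NC libraries, by a log2 difference of 0.98 ± 0.32 between vehicle and NC (edgeR adjusted p = 0.268). Unlike Tap1 and Tap2, Tapbp was lower in NC replicate 2 than in NC replicate 1.

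Nlrc5, the class I transactivator, had the lowest mean level per length of the 10 in each group, though not in every library. It also had the widest difference between vehicle and NC. Nlrc5 was at 22.04 and 14.4 CPM in NC, at 98.1, 40.8 and 67.9 in vehicle and at 21.0, 43.5, 29.3 and 22.4 in DPI libraries. Vehicle libraries were all above NC, and 3 of 4 DPI libraries were below every vehicle library. The log2 difference between vehicle and NC was 1.92 ± 0.50 (edgeR unadjusted p = 0.00192, adjusted p = 0.166) and lay between 1.62 and 2.27 with any 1 library left out.

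Psmb8 encodes the immunoproteasome subunit beta5i (LMP7). It stood at 140 and 213 CPM in NC, at 357, 266 and 312 in vehicle and at 271, 424, 272 and 180 in DPI libraries. Vehicle libraries were above both NC libraries, while DPI replicate 4 lay between the NC libraries. Psmb9 (beta1i, LMP2) was at 35.9 and 57.3 CPM in NC, at 66.4, 41.5 and 68.4 in vehicle and at 85.9, 89.7, 52.0 and 35.5 in DPI libraries. Psmb10 (beta2i, MECL-1) was at 105 and 78.6 CPM in NC, at 108, 69.5 and 107 in vehicle and at 147, 164, 91.5 and 64.5 in DPI libraries. The groups overlapped for Psmb9 and Psmb10 in every comparison. Vehicle differed from NC by 0.82 ± 0.37 for Psmb8 (log2; edgeR adjusted p = 0.372), by 0.33 ± 0.45 for Psmb9 and by 0.04 ± 0.41 for Psmb10 (unadjusted p = 0.468 and 0.924). No test between the 3 subunits was made.

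Each of these subunits takes the place of a constitutive one, and the ratio of the 2 counts in a library does not depend on how libraries are scaled. The log2 ratio of Psmb8 to Psmb5 was 1.02 ± 0.44 in NC (SD, n = 2), 2.39 ± 0.67 in vehicle (n = 3) and 2.15 ± 0.53 in DPI libraries (n = 4). All 7 HFD libraries had a higher ratio than both NC libraries. The difference between vehicle and NC was 1.37 (two-sided exact permutation p = 0.2, with 0.1 the smallest this design allows), and that between DPI and NC was 1.13 (exact permutation p = 0.133, smallest 0.0667). Psmb5 itself, at 85.8 and 84.4 CPM in NC, 42.2, 79.8 and 60.2 in vehicle and 80.5, 61.5, 51.8 and 56.0 in DPI libraries, was below both NC values in every HFD library. The log2 ratio of Psmb9 to Psmb6 was -0.76 ± 0.79 in NC, -1.01 ± 0.64 in vehicle and -0.54 ± 0.58 in DPI libraries, and the groups overlapped. The log2 ratio of Psmb10 to Psmb7 was 1.17 ± 0.21 in NC, 0.83 ± 0.18 in vehicle and 1.21 ± 0.51 in DPI libraries. For this pair all 3 vehicle libraries lay below both NC libraries, by a mean of -0.34 (exact permutation p = 0.2). DPI and vehicle differed by -0.24, 0.47 and 0.38 for the 3 ratios in this order (exact permutation p = 0.6, 0.343 and 0.343, smallest 0.0286). None of the 9 comparisons of ratios passed after Benjamini-Hochberg adjustment, where the lowest value was 0.6.

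**Figure D2:**
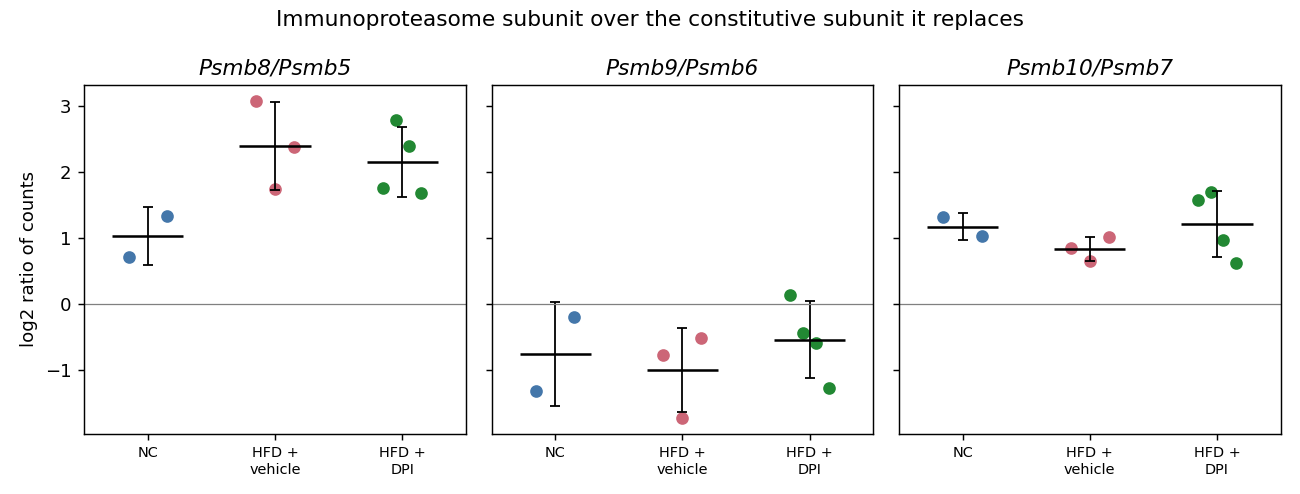
Log2 ratio of the counts of each immunoproteasome subunit to those of the constitutive subunit it replaces, by library and group. Points are libraries, horizontal lines are means, bars are SD, and the grey line marks equal counts. Psmb8/Psmb5 averages 1.02 in NC, 2.39 in vehicle and 2.15 in DPI libraries, Psmb9/Psmb6 overlaps between all groups, and Psmb10/Psmb7 lies below both NC libraries in all vehicle libraries.

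Per kilobase of the longest coding transcript, the level of B2m was 2520 ± 256 CPM in NC, 5340 ± 366 in vehicle and 4640 ± 981 in DPI libraries (SD). H2-D1 came next at 700, 1156 and 1170 CPM per kilobase, then H2-K1 at 449, 711 and 681, and Psmb8 at 109, 191 and 176. Psmb10, Tapbp, Psmb9 and Tap1 followed between 17.0 and 97.5, with an order that changed between groups. Tap2 was at 5.90, 10.04 and 12.1, and Nlrc5 was last at 2.40, 9.10 and 3.84 CPM per kilobase. The light chain was thus above the sum of the levels of both heavy chains in every group, whereas Tap2 was below Tap1 in every group. The single transcript length used for each gene sets these levels, and the spread of H2-K1 and H2-D1 overlapped in vehicle libraries.

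To see whether DPI changed the class I genes in HFD-fed mice, HFD + DPI was compared with HFD + vehicle. Nlrc5 was the 1 gene of 10 that fell, by the study's criterion and at an unadjusted p under 0.05, and none rose. Of all genes, 1.34% were called lower and 1.5% higher by the study's criterion. At an unadjusted p under 0.05 it was 2.17% lower and 1.96% higher, 470 genes in all, fewer than the 570 that 5% of the tests would give. In none of the 10 were the groups apart, which was so for 3.38% of all genes higher and 2.48% lower. The Nlrc5 difference was -1.25 ± 0.39 on the log2 scale (edgeR unadjusted p = 0.00608, adjusted p = 0.999), and the groups overlapped, because DPI replicate 2 (43.5 CPM) was above vehicle replicate 2 (40.8 CPM). Without vehicle replicate 1 the difference was -0.91 and no longer passed an unadjusted p of 0.05. After adjustment edgeR's quasi-likelihood test called 0 genes of all, DESeq2 called 2 and the likelihood ratio test 1, none of them among the 10.

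The other 9 genes lay between -0.42 and 0.30 on the log2 scale. Tapbp was at -0.42 ± 0.26 (edgeR unadjusted p = 0.131), B2m at -0.20 ± 0.20 and Psmb8 at -0.12 ± 0.30. The heavy chains H2-K1 and H2-D1 were at -0.06 ± 0.25 and 0.02 ± 0.24, and the sum of all class I heavy chain rows at -0.02 ± 0.21. Tap1 was at -0.06 ± 0.35, Tap2 at 0.27 ± 0.50, Psmb9 at 0.16 ± 0.37 and Psmb10 at 0.30 ± 0.34. With these errors even a change larger than its SE, such as that of Tapbp, was not called. These values therefore do not show that DPI left the genes as they were. The median of the 10 was -0.06 against 0.04 for all genes, with 4 positive and 6 negative.

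**Figure D3:**
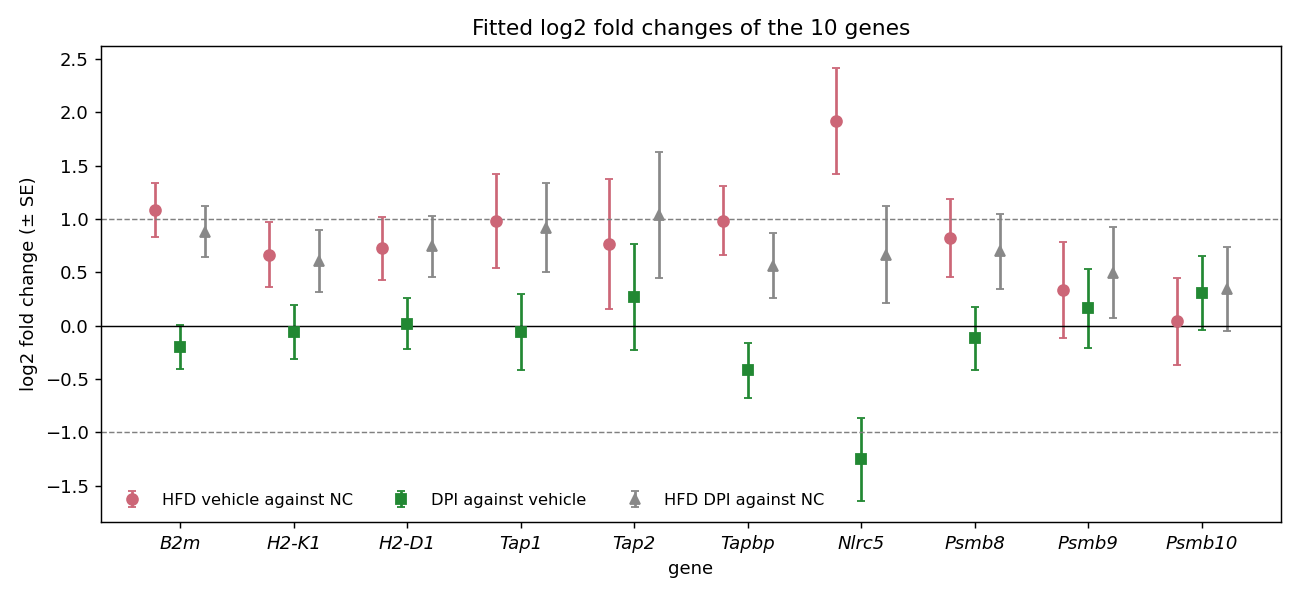
Log2 fold changes of the 10 genes fitted with edgeR in the 3 comparisons, with SE as bars and dashed lines at a 2-fold change. HFD vehicle against NC (circles) is above 0 for all 10, DPI against vehicle (squares) lies near 0 except for Nlrc5 at -1.25, and HFD DPI against NC (triangles) is again above 0 for all 10.

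HFD + DPI was also compared with NC, which asks how far the genes stood from the chow level after treatment. The 3 comparisons share their libraries in pairs, so their values are given side by side and are not independent. By the study's criterion 0 of the 10 differed from NC in edgeR's quasi-likelihood test (6.24% of all genes were higher and 3.05% lower), and after adjustment 0 differed by edgeR, which called 0.00878% of all genes higher, and 0 by DESeq2, the likelihood ratio test and the exact test, which called 1.67%, 1.33% and 0.904% of all genes higher. At an unadjusted p under 0.05, B2m, H2-D1 and Tap1 were higher, 3 of 10 against 7.13% of all genes higher and 3.62% lower. In B2m, H2-K1, H2-D1 and Tapbp the DPI libraries did not overlap with NC, against 11.7% of all genes higher and 8.5% lower. All 10 differences were positive, with a median of 0.68 against 0.04 for all genes. B2m was at 0.88 ± 0.24 (1.08 in vehicle against NC), H2-D1 at 0.74 ± 0.28 (0.72), Tap1 at 0.92 ± 0.42 (0.98) and Tap2 at 1.04 ± 0.59 (0.77). Nlrc5 was at 0.66 ± 0.46 (1.92 in vehicle against NC), with DPI libraries that overlapped NC. Without NC replicate 2, B2m, Tap1, Tap2 and Psmb8 met the study's criterion and Tap1 and Tap2 passed edgeR's adjusted test, with 14.7% and 3.86% of all genes then called higher, while without NC replicate 1 only B2m passed an unadjusted p of 0.05.

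The other genes of the class I pathway were read from lists. Of 21 further class I and related genes, 18 were tested, and 5 of them rose with HFD + vehicle against NC by the study's criterion (H2-Q4, H2-Q5, H2-Q7, H2-Q8 and Mr1, an MHC-like molecule that presents vitamin metabolites), while none fell. The rises of H2-Q4 and H2-Q7 fell short of it by library size alone (0.90 and 0.93), and that of H2-Q7 also without NC replicate 1, while H2-Q6 met it by DESeq2, the likelihood ratio test and the exact test and with either other filter. H2-Q4 and H2-Q5, from the Q region beside H2-D1, differed by 1.19 ± 0.35 and 1.61 ± 0.40 from NC, and DPI against vehicle by -0.73 and -0.79 (edgeR unadjusted p = 0.0206 and 0.0228, both adjusted p = 0.999). H2-Q8 was counted 20 and 0 times in NC and 104 to 219 times in vehicle libraries, and Mr1 0 times in both NC libraries and 10 to 28 times in vehicle libraries, at least a log2 difference of 2.63 against the floor of 3 counts per library. These genes share sequence with H2-K1 and H2-D1, Mr1 excepted, and their counts are uncertain for that reason. Of 8 endoplasmic reticulum factors that fold and load class I molecules or open the channel for peptides, Sec61a1, a subunit of the translocon, rose with HFD + vehicle (1.13 ± 0.40) and fell with DPI (-1.03 ± 0.32), by the study's criterion. The rise of Sec61a1 fell short of the criterion by library size alone (0.82), with a replicate block, in which the replicate number is a term of the fit (0.83), and without NC replicate 1 or vehicle replicate 1, and its fall by library size alone (-0.91) and without vehicle replicate 1 or 3 or DPI replicate 1 or 2. Of 8 peptidases, Lap3, which trims peptides in the cytosol, fell with HFD + vehicle (-1.76, edgeR adjusted p = 0.351) and none rose. This call was lost with the replicate block (-1.55, edgeR unadjusted p = 0.0822) and without NC replicate 1 or any 1 vehicle library. Erap1, which trims them in the endoplasmic reticulum, was at 0.78 ± 0.57, with 0.21 without NC replicate 1 and 1.79 without NC replicate 2.

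The next lists were the 3 constitutive catalytic subunits, 11 other subunits of the proteasome core and 10 activators and assembly factors. By edgeR's quasi-likelihood test with all libraries, none of these genes met the study's criterion in vehicle against NC or DPI against vehicle. In DPI against NC, Psmg1, an assembly chaperone, met it as higher by the same test, but did not pass after adjustment. In vehicle against NC, Psmg1 met the criterion by DESeq2, the likelihood ratio test and the exact test (log2 differences of 2.02, 2.04 and 2.04). Without NC replicate 1, Psma6, Psme3 and Psmg1 met it as higher, without NC replicate 2 Psma2, Psme1 and Psmf1 as higher and Psme3 as lower, and by library size alone Psmg2 as lower. The core subunits had a median log2 difference of 0.20 between vehicle and NC, with 9 of 11 positive, and of -0.03 between DPI and vehicle. Psme1 and Psme2, the interferon-induced activator subunits PA28 alpha and beta, were at 0.69 ± 0.34 and 0.48 ± 0.28 in vehicle against NC. Of 21 regulators and receptors none met the criterion in vehicle against NC or in DPI against vehicle by edgeR's quasi-likelihood test. In DPI against NC, Nfyb met it as higher by that test, but did not pass after adjustment. In vehicle against NC, Ifng met it by DESeq2 and with the replicate block (2.83 and 3.87). Creb1 met it as lower by library size alone, and Nfya as lower by library size alone and without vehicle replicate 2. Without NC replicate 2, the fitted differences were 7.54 for Rfx5, 1.74 for Rfxank and -2.39 for Nfya. For Ifng it was then 9.20, which is no measure of size, because NC replicate 1 had 0 counts. Irf1, a transcription factor for Psmb9, Tap1 and B2m, was at 0.51 ± 0.30, and Rela, a subunit of NF-kappaB, at 0.53 ± 0.34. Ifng, the interferon gamma gene, was counted 0 and 16 times in NC, 16, 70 and 66 times in vehicle and 9, 38, 20 and 30 times in DPI libraries. Its vehicle libraries lay above both NC libraries in CPM, and its DPI libraries overlapped both groups. 

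MHC class II genes, which share part of their promoter logic with class I, served as a neighbouring pathway. All 11 were positive in vehicle against NC, with a median of 0.94, and H2-Aa (1.02) and H2-DMb1 (1.03) rose by the study's criterion. The rise of H2-Aa fell short of the criterion with DESeq2's size factors in edgeR (0.99), by DESeq2 (0.99), with the replicate block (0.95), by library size alone (0.72) and without NC replicate 2 (0.89), and that of H2-DMb1 by library size alone (0.75) and without NC replicate 1 or vehicle replicate 1. In DPI against vehicle the class II median was 0.0050, and Cd74, the invariant chain, was higher at 0.61 (edgeR unadjusted p = 0.0265, adjusted p = 0.999). In DPI against NC all 11 were positive, with a median of 1.13. There 5 of the 11 rose by the study's criterion, against 6.24% of all genes, and 0 after adjustment. H2-Aa (1.43), H2-Ab1 (1.30), Cd74 (1.28) and H2-DMb1 (1.13) were among them. Of 14 genes induced by interferon gamma, Gbp5, Tgtp1 and Cxcl9 rose in vehicle against NC, with a list median of 0.70. Cxcl9, a chemokine for T cells, was at 26.2 and 24.5 CPM in NC, at 137, 19.2 and 158 in vehicle and at 34.9, 53.7, 42.9 and 36.1 in DPI libraries. It fell with DPI by the study's criterion (-1.33, edgeR unadjusted p = 0.0204, adjusted p = 0.999), although vehicle replicate 2 was the lowest of all libraries, and the call was lost with the replicate block (-1.01) and without vehicle replicate 1, vehicle replicate 3 or DPI replicate 4. Its rise in vehicle against NC was also lost with the replicate block (1.66, edgeR unadjusted p = 0.0503). Gbp5 had 2 and 0 counts in NC, 17 to 130 in vehicle and 34 to 163 in DPI libraries. In DPI against vehicle 11 of the 14 were negative, with a median of -0.37. In DPI against NC 10 of the 14 were positive, with a median of 0.46. There Gbp5 and Tgtp1 rose by the study's criterion, 2 of 14 against 6.24% of all genes, and 0 after adjustment.

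**Figure D4:**
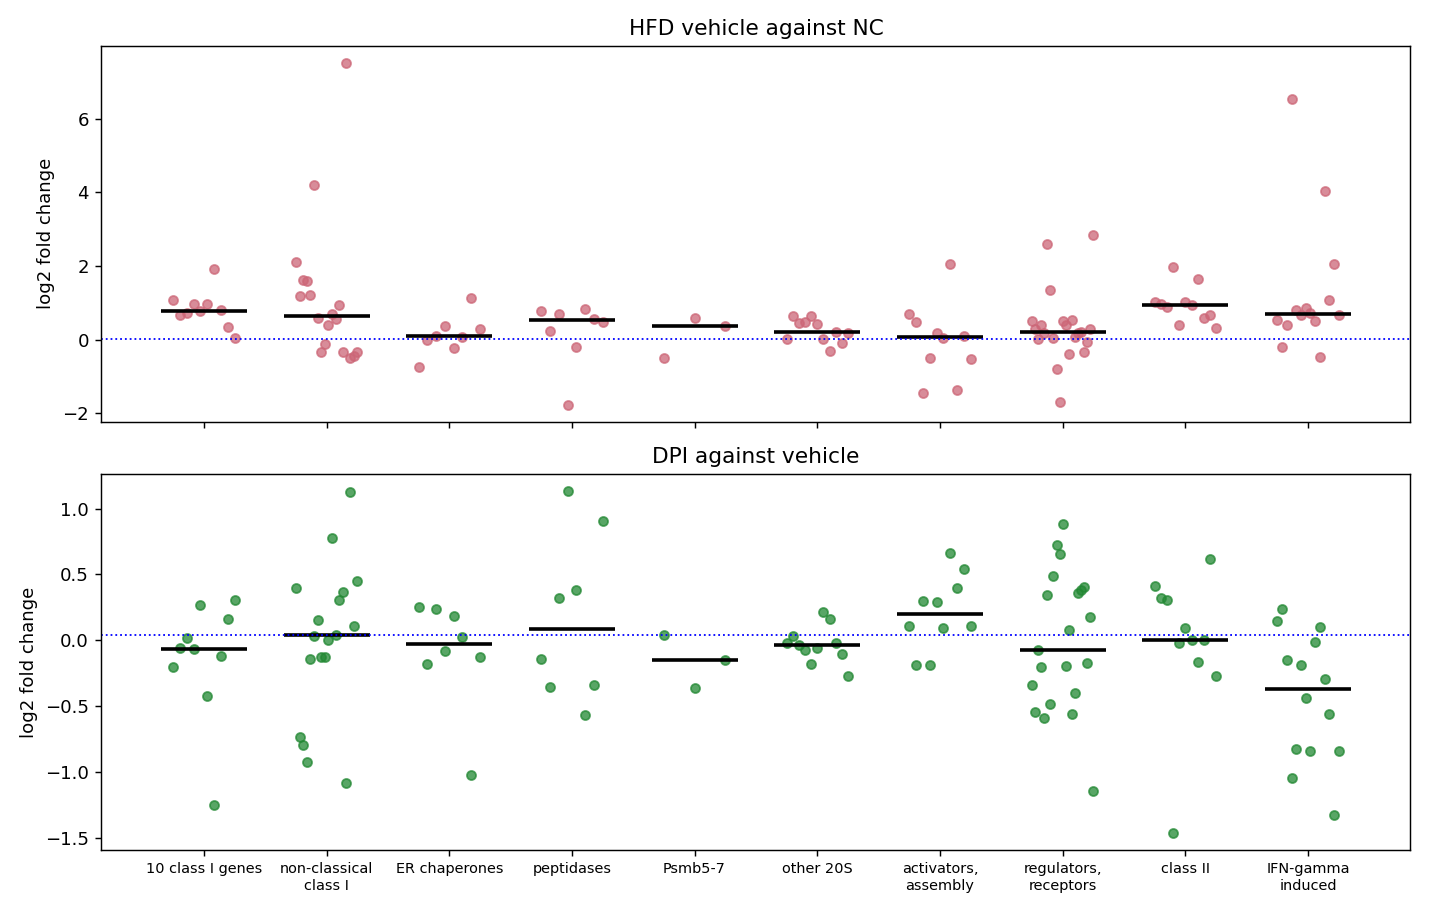
Log2 fold change of every tested gene of 10 lists in HFD vehicle against NC (upper panel) and DPI against vehicle (lower panel, another scale). Points are genes, black lines list medians, and the dotted line the median of all genes tested. The class I genes (median 0.79), class II genes (0.94) and interferon gamma induced genes (0.70) lie above that line in the upper panel, and fitted values above 6 belong to Mr1 and Gbp5, which were at or under the floor in NC and are no measure of size.

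Across the 9 libraries the 10 genes varied together in part. Of their 45 pairs, 44 had a positive Pearson correlation of log2 CPM, with a median of 0.53. Tap1 and Tap2 had the highest at 0.90, then B2m and Psmb8 at 0.87 and B2m and H2-K1 at 0.85. H2-K1 and H2-D1 were at 0.82 and Psmb9 and Psmb10 at 0.81. The lowest, at -0.23, was between H2-D1 and Psmb10. These values are over all libraries, which fall into the study's groups, share scaling factors and differ in depth, and they describe these 9 libraries only. Averaged over the 10 genes in SD units, NC replicates 1 and 2 stood lowest at -1.45 and -0.73, and DPI replicate 4 came next at -0.49, below all vehicle libraries (0.38, 0.30 and 0.62). DPI replicate 2 was the highest at 0.88. The genes outside the 10 whose log2 CPM followed this mean most closely were Tgoln2, C1ra, Itgb1bp1, Rasa4 and Slamf8, with r from 0.949 to 0.986 over 9 libraries. Tgoln2 and C1ra had 0 counts in at least 1 library, and the 5 were the highest of all genes tested, so that their r is high by selection.

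**Figure D5:**
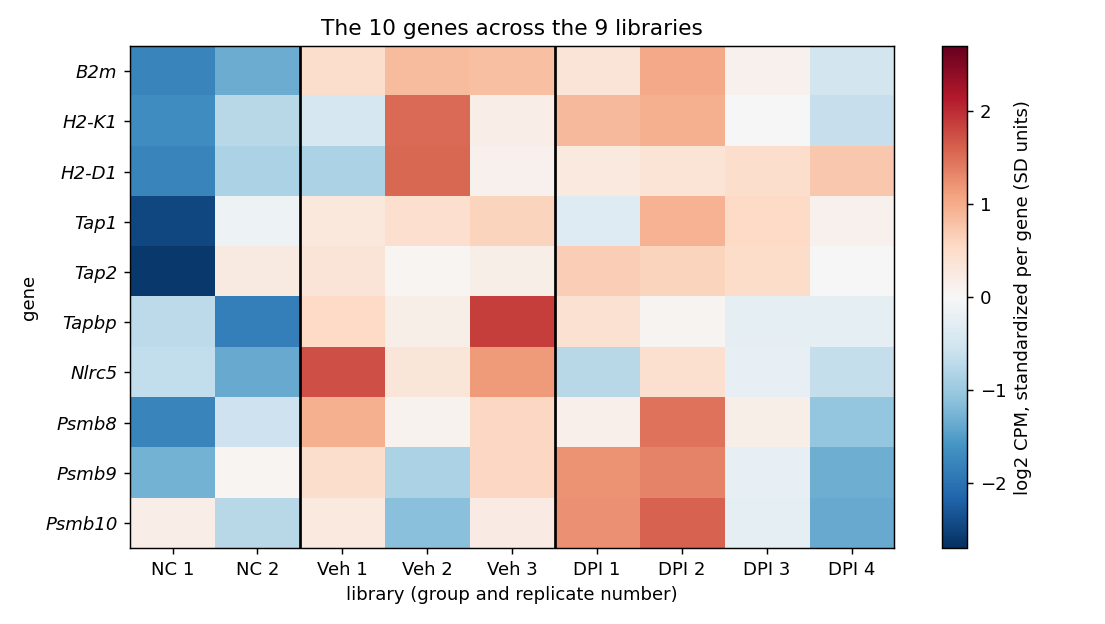
Log2 CPM of the 10 genes in the 9 libraries, standardized per gene over the libraries (colour, in SD units), with black lines between the NC, vehicle (Veh) and DPI groups. Tap1 and Tap2 are lowest in NC 1 (-2.46 and -2.60), Nlrc5 is highest in Veh 1 (1.75), and DPI 2 is above the mean for all 10 genes while DPI 4 is below it for most.

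The summed RNA levels of markers of several other cell types differed between NC and vehicle, and class I genes are active in most of the cell types concerned. Of 14 T and NK cell markers, 4 rose in vehicle against NC by the study's criterion (Cd3e, Lck, Ccl5 and Il2rb). Their summed level was 198 and 727 CPM in NC, 735 to 1240 in vehicle and 536 to 1470 in DPI libraries. Dendritic cell markers summed to 55.2 to 108 CPM in NC, 193 to 310 in vehicle and 123 to 409 in DPI libraries, but gene by gene 4 of 7 were negative in vehicle against NC and Ccr7 alone rose. B cell markers summed to 32.1 to 76.9, 109 to 197 and 19.0 to 457 CPM. Markers of sinusoidal endothelium went the other way, with 146 to 235 CPM in NC, 6.69 to 16.0 in vehicle and 4.27 to 163 in DPI libraries, and 5 of 8 fell in vehicle against NC while 1 rose. Hepatocyte markers summed to 107 to 232 CPM in NC, 14.0 to 56.8 in vehicle and 28.3 to 80.5 in DPI libraries, and 3 of 6 fell. Kupffer cell markers summed to 279 to 442 CPM in NC, 105 to 272 in vehicle and 149 to 746 in DPI libraries. Eosinophil markers summed to 5.6 to 6.56, 6.94 to 8.71 and 5.38 to 98.5 CPM. For both lists NC and vehicle were apart, and the DPI range overlapped both. Neutrophil markers (1040 to 3020, 2460 to 3740, 652 to 5340) overlapped between all groups. General macrophage markers (19300 to 25200, 15100 to 25700, 21100 to 44000) and monocyte markers (4090 to 4580, 4180 to 5160, 3890 to 7590) overlapped between groups in their sums. In vehicle against NC, Emr1, which encodes the gating antigen F4/80, fell (139 and 115 CPM in NC, 61.5, 67.3 and 55.0 in vehicle, 142, 74.4, 80.3 and 56.4 in DPI libraries, which overlapped both groups), as did Ccr2, C1qa and Camp, while Ly6c2 and Cd79b rose. In DPI against NC, 5 T and NK cell genes (Cd3d, Cd3e, Lck, Ccl5 and Il2rb), Cd79b, Cd209a, Prg2, Epx and Pecam1 rose, and Alb, Serpina1a and Fgb fell. In DPI against vehicle, the comparison in which Nlrc5 fell, C1qa and C1qc of the Kupffer list, Camp and Ltf of the neutrophil list, Prg2 and Epx of the eosinophil list and Stab2, Clec4g and Egfl7 of the endothelial list rose, and Spic of the Kupffer list fell, all by the study's criterion. No list of these markers was at 0 in all of its genes in any library. The part of any of these cells in the class I values was not tested.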

How the data were processed

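RNA-seq of sorted liver macrophages gave 9 libraries (2 NC, 3 HFD + vehicle, 4 HFD + DPI), grouped by the sample labels. The authors deposited raw counts per gene on mm10, whole numbers without normalization. The study names bowtie2 and RSEM for them, and the submitters' processing notes name TopHat2 and edgeR. Differences in counts were tested by edgeR (4.0.16, under R 4.3.3; filterByExpr, TMM, glmQLFit over the 3 groups, glmQLFTest), with Benjamini-Hochberg adjustment over the 11393 genes kept. The procedure was tested on simulated data. DESeq2 1.42.0 was an alternative. Ratios had 0.5 added to each count and were compared by exact permutation over libraries (Python 3.11.15). Log2 CPM used a prior count of 2. Floors cover counting error only. Libraries held 3534325 to 15585775 counts, and the shallow ones are less precise for Nlrc5 and Tap2. Where same-group mice were not processed apart, p-values measure only the spread between these libraries. Members and lists were chosen with earlier results of these data known. Genes named are the 10 members in every library, from each list at most 3 with the smallest unadjusted p in vehicle against NC and in DPI against vehicle, Psmb5, Psmb6 and Psmb7, and the 5 non-members most correlated with the member mean. Clec4f, H2-Q7, Mr1 and the genes of the cell type lists are named outside this rule, after their values were seen. Replicate numbers do not pair libraries across groups.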

Additional observations from a re-analysis of the deposited data

Results flagged for a closer look

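Among the 4 DPI libraries, 2 of the 56 genes and subunit ratios examined had a library that stood far from the other 3 (Dixon's test at the 95% level, which chance alone meets in about 5% of groups, so that this number is no more than chance gives). Dpp3, a cytosolic peptidase, was at 18.7 CPM in DPI replicate 2, against 31.3 to 32.8 CPM in the others. Psma4, a subunit of the proteasome core, was at 116 CPM in DPI replicate 1, against 62.0 to 65.0 CPM in the others. Groups of 2 and 3 libraries were not examined in this way, and none of the 10 class I genes met the criterion.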

How the results depend on the processing

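For vehicle against NC, the study's criterion called 1329 genes, 726 with at least 10 counts required in every library, and 1027 to 2634 with 1 library left out (2634 without NC replicate 2). The 7 genes called after adjustment became 1 by library size alone, 52 without a filter, 1 with at least 10 counts, 312 by DESeq2, 280 by the likelihood ratio test, 170 by the exact test, 0 with 2 groups only, 0 with the replicate block and 1 to 568 with 1 library left out. Of the 10 class I genes, 2 rose by the study's criterion, 1 by library size alone (4.73% of all genes higher) and 4 without Rn45s (7.38%; 2 to 5 with 1 library left out), and 7 passed an unadjusted p, 2 by library size alone and 4 by the likelihood ratio test, by the exact test and with 2 groups only (3 to 7 with 1 left out). After adjustment 0 passed, but 2 by DESeq2, 1 by the likelihood ratio test and 1 by the exact test (0 to 2 with 1 left out). Library size alone moved the median of all genes from 0.03 to -0.26 and that of the 10 from 0.79 to 0.52, Psmb10 to -0.27 and Sec61b to -0.0091. For DPI against vehicle the criterion called 324 genes, 602 without a filter, 202 with at least 10 counts and 187 to 543 with 1 left out. After adjustment 0 genes passed, but 2 by DESeq2 and 1 by the likelihood ratio test. H2-K1 became 0.0719 and Psmb8 0.0049 with the replicate block, and H2-D1 became -0.0115 with 2 groups only and -0.0047 without Rn45s. For DPI against NC, 1058 genes became 527 with at least 10 counts (830 to 2626 with 1 left out), and the 1 adjusted call became 22 without a filter, 219 by DESeq2, 186 by the likelihood ratio test, 132 by the exact test, 0 with 2 groups only and 0 with the replicate block (1 to 572 with 1 left out). Of the 10, 0 became 2 by the criterion with the replicate block (0 to 4 with 1 left out), and 3 by unadjusted p became 1 by library size alone and 5 with the replicate block (1 to 5 with 1 left out), and 0 to 2 passed after adjustment with 1 left out.

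With 1 library left out, the vehicle against NC difference ranged from -0.0369 to 2.84 for Tap2 and from -0.13 to 0.27 for Psmb10. The DPI against vehicle difference ranged from -0.23 to 0.19 for H2-K1, -0.20 to 0.34 for H2-D1, -0.22 to 0.0678 for Tap1, -0.38 to 0.0485 for Psmb8, -0.0378 to 0.37 for Psmb9 and -0.17 to 0.29 for Psmb5, and 0 to 1 of the 10 fell. The ratio of Psmb8 to Psmb5 ranged from -0.57 to 0.0983 in DPI against vehicle, that of Psmb9 to Psmb6 from -0.80 to 0.31 in vehicle against NC and -0.34 to 0.78 in DPI against NC, and that of Psmb10 to Psmb7 from -0.12 to 0.24 in DPI against NC. Samples with the same replicate number had correlations of their deviations from -0.022 to 0.084, so the numbers do not pair them. Summing the heavy chain rows was chosen after seeing the data. The cause of these changes was not tested. The NC group of 2 libraries and the shallowest library of 3534325 counts limit what can be seen.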
